A study of Mus musculus with 15 samples.

Results

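Fcgr1, Fcgr2b, Fcgr3, Fcgr4, Fcer1g, Tyrobp, Trem2, Syk, Clec7a and Pirb encode Fc receptors for IgG, the ITAM adaptors they and related receptors use, and receptors and a kinase of the same route. These 10 genes were chosen by symbol, from 56832 genes in the count table, and all 10 passed the filter on low counts. They were followed in bulk RNA-sequencing of bone marrow mesenchymal stromal cell (MSC) cultures from the long bones of 16 week old TauT+/+ and TauT-/- mice. TauT-/- mice lack the taurine transporter Slc6a6 in every tissue (a global knockout), so the loss is not limited to stromal cells. The libraries comprised 4 TauT+/+ and 4 TauT-/- labelled male, and 3 TauT+/+ and 4 TauT-/- labelled female, all of 1 cell type label (MSC). Adherent marrow cells were grown in MEM α with serum and, per the study's methods, freed of CD45+, Ter119+ and CD31+ cells by magnetic depletion or flow sorting. The labels do not say which mouse each culture came from, so p-values measure the spread between these libraries.

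Fc receptors bind the constant part of antibodies on the surface of macrophages and other leukocytes. Activating receptors such as Fcgr1, Fcgr3 and Fcgr4 signal through the Fc receptor gamma chain, Fcer1g, whose ITAM is phosphorylated by Src family kinases and then recruits the kinase Syk. DAP12, encoded by Tyrobp, is a separate ITAM adaptor that does the same for Trem2 and many other myeloid receptors, while Fcgr2b and Pirb carry ITIMs and recruit phosphatases that damp the signal. In bone, both adaptors are known for the costimulatory signal that osteoclast precursors need.

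Expression is given in CPM, in which each library's counts are divided by its TMM-scaled size so that depth does not set the value. Total counts were 69764291 to 101575071 in the male-labelled libraries and 12761107 to 20781070 in the female-labelled libraries, so that sex label and depth cannot be told apart, and each depth held libraries of TauT+/+ and TauT-/-. Sex-linked genes went against the label in 3 libraries: male-labelled library 1 of TauT+/+ and of TauT-/-, and female-labelled library 3 of TauT+/+. Values within a sex label below keep all libraries as labelled. Library 1 of each genotype was near-identical under both sex labels, so these may not be separate cultures. The scaled median absolute deviation of log2 CPM differences within these near-identical pairs, over well expressed genes, was 0.0978 for TauT-/- and 0.108 for TauT+/+. It was 0.263 for the next closest pair, which joined the genotypes: male-labelled library 3 of TauT+/+ and of TauT-/-. Slc6a6, the targeted gene, was at 592 to 2591 CPM in TauT+/+ and 401 to 1521 CPM in TauT-/-, and the genotypes overlapped. Its log2 fold change was -0.97 ± 0.36 SE (edgeR adjusted p = 0.125, DESeq2 adjusted p = 0.0631). By limma's voom with quality weights it was -1.27 ± 0.28 (voom adjusted p = 0.0246). Counts over the whole gene do not separate the deleted part from the rest of it. Summed CPM of 14 stromal markers was 28104 to 47510 in TauT+/+ and 6221 to 40447 in TauT-/-. That of 15 macrophage markers was 1306 to 10117 and 6152 to 20031. The lowest stromal sum, 6221 in a TauT-/- library labelled female, was below the lowest macrophage sum of that group (6694). The MSC label was thus not matched equally well in all libraries. Markers of leukocytes were also present although the cultures had been depleted of CD45+ cells, and Ptprc, which encodes CD45, was at 27.9 to 179.0 CPM in TauT+/+ and 114 to 370 CPM in TauT-/-.

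Of the 10 genes, 4 lie within 276.0 kb of chromosome 1 (GRCm39). They are Fcgr2b at chr1:170786186-170804177 on the minus strand, Fcgr4 at chr1:170846466-170857330 on the plus strand, Fcgr3 at chr1:170878738-170893549 on the minus strand, and Fcer1g at chr1:171057141-171062219 on the minus strand. The others are on separate chromosomes or far apart, with Fcgr1 at chr3:96190225-96201338, Clec7a at chr6:129438554-129449742, Pirb at chr7:3714408-3723416, Tyrobp at chr7:30113170-30117010, Syk at chr13:52736696-52802828 and Trem2 at chr17:48653429-48661175. Because the 10 genes varied together across the libraries (correlations are given with the likeness of profiles), their promoters were searched for the core of the site bound by PU.1 (Spi1), the transcription factor that specifies myeloid cells. The letters searched were GAGGAA on either strand, in the 250 bases before and 50 bases from the start of the canonical transcript. A match was present in 8 of the 10 promoters, all except those of Fcgr2b and Fcgr3, and in 27.5% of 21770 promoters of protein-coding genes. The promoters of Fcer1g, Tyrobp and Pirb held 2 or more matches, as 4.92% of all promoters did. TATAAA, the core of the TATA box, was searched in the same way on either strand. It was present in 2 of the 10, Fcer1g and Clec7a, and in 13.2% of all. In Clec7a the letters lay after the start and on the opposite strand, so they are not placed as a TATA box of that gene. A match describes letters only, and no binding was measured.

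The promoter of the adaptor Fcer1g (chr1:171062170-171062469, minus strand) is shown because Fcer1g had the smallest adjusted p of the 10 genes and its promoter held a pair of matches. Capitals mark the matches, read 5′ to 3′ on the strand of the gene, and TTCCTC is the reverse complement of GAGGAA.
Fcer1g: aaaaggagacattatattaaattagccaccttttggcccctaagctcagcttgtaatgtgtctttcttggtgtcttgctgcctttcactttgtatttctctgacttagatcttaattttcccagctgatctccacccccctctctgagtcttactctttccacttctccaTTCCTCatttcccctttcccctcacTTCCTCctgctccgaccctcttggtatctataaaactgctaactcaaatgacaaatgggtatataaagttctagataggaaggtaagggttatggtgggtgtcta
In Fcer1g the matches began 80 and 55 bases before the first transcribed base. For the receptors and the kinase, 30 bases around the match nearest the start show that the hexamer lies on the opposite strand in each except Clec7a.
Fcgr1: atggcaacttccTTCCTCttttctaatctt
Fcgr4: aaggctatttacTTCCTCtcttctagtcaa
Trem2: agcctcctttccTTCCTCcctccctcacgc
Syk: aggacacacccaTTCCTCtgaatctgtctt
Clec7a: aaacaggatctaGAGGAAaaaagggaaatt
Pirb: tgaggagggcagTTCCTCtttctgtggggc
The windows are at chr3:96201323-96201352 (minus strand) for Fcgr1, chr1:170846461-170846490 (plus) for Fcgr4, chr17:48653377-48653406 (plus) for Trem2, chr13:52736653-52736682 (plus) for Syk, chr6:129449821-129449850 (minus) for Clec7a and chr7:3723451-3723480 (minus) for Pirb. The match began 2 bases before the start in Fcgr1, 7 after it in Fcgr4, and 40, 31, 98 and 52 before it in Trem2, Syk, Clec7a and Pirb.

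Levels per kilobase used the merged length of all annotated exons of each gene. On these lengths the adaptors were highest, with Tyrobp at 216 ± 92.1 and Fcer1g at 115 ± 54.6 CPM per kb in TauT+/+ (mean ± SD, n = 7). Next came the receptors Fcgr3 (36.4 ± 13.5), Fcgr2b (21.2 ± 9.5), Trem2 (19.2 ± 7.69) and Pirb (17.7 ± 8.41 CPM per kb). The kinase Syk followed at 8.46 ± 3.46, and Fcgr4 (4.89 ± 3.45), Fcgr1 (1.54 ± 1.08) and Clec7a (1.51 ± 0.791 CPM per kb) were lowest. With these lengths fixed, neighbours in this order kept it in 15 of 15 libraries, with 3 exceptions. Fcgr2b exceeded Trem2 in 12, Trem2 exceeded Pirb in 11 and Fcgr1 exceeded Clec7a in 8 of 15. The merged length was 4946 bases for Trem2 and 2638 for Clec7a, against 1088 and 707 in their canonical transcripts. The order below the adaptors, and the shares given below, therefore depend on the length used. In TauT-/- (n = 8) Tyrobp was at 399 ± 139, Fcer1g at 274 ± 119 and Clec7a at 2.58 ± 1.65 CPM per kb. Of the CPM per kb summed over the 10 genes, Tyrobp made up 49.2% ± 3.21 in TauT+/+ and 44.1% ± 4.88 in TauT-/-, and Fcer1g 25.2% ± 2.63 and 30.0% ± 3.64.

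**Figure D1:**
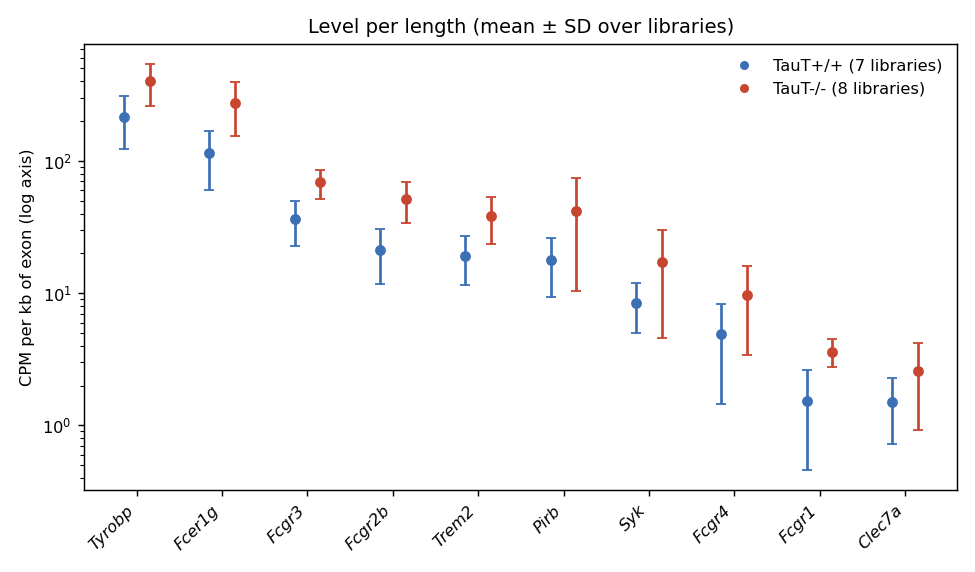
Level per length of the 10 genes, as CPM per kb of merged annotated exons on a log axis, ordered by the TauT+/+ mean. Points are mean ± SD over 7 TauT+/+ (blue) and 8 TauT-/- (red) libraries. On these lengths Tyrobp and Fcer1g lead at 216 and 115 CPM per kb in TauT+/+, and Clec7a is lowest at 1.51. The TauT-/- mean lies above the TauT+/+ mean for each gene.

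The comparison of TauT-/- with TauT+/+ asks how transporter loss relates to expression in these cultures. Mean CPM of all 10 genes was higher in TauT-/- cultures, by 1.67-fold (Clec7a) to 2.47-fold (Fcgr1) in the fit, with a median log2 fold change of 1.01 against -0.015 over all 17204 genes tested. By edgeR's quasi-likelihood test with Benjamini-Hochberg adjustment, 0 of the 10 passed an adjusted p of 0.05, where 0.546% of all genes were called higher in TauT-/-. At an unadjusted p under 0.05, 9 of the 10 were higher (all but Clec7a), against 10.6% of all genes. DESeq2 on the same model called 6 of the 10 higher (Fcgr1, Fcgr2b, Fcgr3, Fcer1g, Trem2 and Pirb; 5.65% of all genes), and limma's voom with quality weights called 4 (Fcgr1, Fcgr2b, Fcgr3 and Fcer1g; 3.55% of all genes). In bulk samples, more cells of a type and more RNA per cell cannot be told apart.

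Fcer1g, the gamma chain, had the smallest adjusted p of the 10. Its CPM was 168, 26.3, 119 and 73.5 in TauT+/+ and 180, 227, 239 and 343 in TauT-/- libraries 1 to 4 labelled male. Among libraries labelled female it was 185, 163 and 197 in TauT+/+ and 205, 334, 421 and 592 in TauT-/-. The genotypes did not overlap within either sex label, and over both labels 7 of 8 TauT-/- libraries were above the highest TauT+/+ library. The log2 fold change was 1.23 ± 0.32 (SE; edgeR adjusted p = 0.0633; DESeq2 adjusted p = 0.00508).

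Tyrobp, the other adaptor, was at 204, 38.0, 153 and 83.2 CPM in TauT+/+ and 147, 250, 271 and 329 in TauT-/- labelled male. Labelled female, it was at 188, 175 and 191 in TauT+/+ and 138, 352, 278 and 410 in TauT-/-. Library 1 of TauT-/- was below library 1 of TauT+/+ under both labels, while the other TauT-/- libraries exceeded all TauT+/+ libraries. The log2 fold change was 0.88 ± 0.32 (edgeR adjusted p = 0.121; DESeq2 adjusted p = 0.0519). Trem2, a DAP12-coupled receptor for lipids and lipoproteins, had a lowest, median and highest CPM of 21.1, 109 and 133 in TauT+/+ and of 100, 184 and 294 in TauT-/-. Its genotypes overlapped only through TauT-/- library 1, at 100 and 102 CPM under the male and female labels (log2 fold change 0.99 ± 0.32, edgeR adjusted p = 0.0938, DESeq2 adjusted p = 0.0261).

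Among the IgG receptors, the inhibitory Fcgr2b was at 171, 26.8, 115 and 134 CPM in TauT+/+ and 239, 207, 170 and 375 in TauT-/- labelled male. Labelled female, it was at 174, 170 and 78.1 in TauT+/+ and 257, 390, 472 and 292 in TauT-/-. The genotypes did not overlap under the female label and crossed in 1 TauT-/- library labelled male, which was just below the highest TauT+/+ library. The log2 fold change was 1.23 ± 0.33 (edgeR adjusted p = 0.0659, DESeq2 adjusted p = 0.00542). The activating Fcgr3 ran from 27.9 to 151 CPM (median 118) in TauT+/+ and from 145 to 278 (median 216) in TauT-/-, with 7 of 8 TauT-/- libraries above all TauT+/+ libraries. Its log2 fold change was 0.90 ± 0.27 (edgeR adjusted p = 0.0824, DESeq2 adjusted p = 0.0181). Fcgr1, the high-affinity receptor, was low, at 0.723 to 10.5 CPM (median 5.69) in TauT+/+ and 8.03 to 17.1 (median 12.9) in TauT-/-. It did not overlap between genotypes within either sex label, and its log2 fold change was the largest of the 10, at 1.30 ± 0.42 (edgeR adjusted p = 0.0953, DESeq2 adjusted p = 0.0224). Fcgr4, which binds IgG2 subclasses, ran from 1.05 to 14.6 CPM (median 6.46) and from 6.45 to 30.6 (median 9.67). Only 2 TauT-/- libraries exceeded the highest TauT+/+ library (log2 fold change 1.03 ± 0.46, edgeR adjusted p = 0.194, DESeq2 adjusted p = 0.112).

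Syk, the kinase that both adaptors recruit, ran from 21.3 to 130 CPM (median 86.6) in TauT+/+ and from 68.3 to 471 (median 149) in TauT-/-. Its highest value came from TauT-/- female-labelled library 4, and without that library its log2 fold change was 0.64 in place of 0.95 ± 0.40 (edgeR adjusted p = 0.170 over 15 libraries). Pirb, an inhibitory receptor for MHC class I, ran from 14.5 to 126 CPM (median 87.4) and from 74.1 to 529 (median 161), with the same library highest. Its log2 fold change was 1.19 ± 0.42 (edgeR adjusted p = 0.113, DESeq2 adjusted p = 0.0369). Clec7a (Dectin-1), the receptor for fungal beta-glucan, was near the bottom of the range at 1.47 to 6.82 CPM (median 4.51) and 2.62 to 14.2 (median 5.28). It had the smallest log2 fold change of the 10, 0.74 ± 0.38 (edgeR adjusted p = 0.248).

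**Figure D2:**
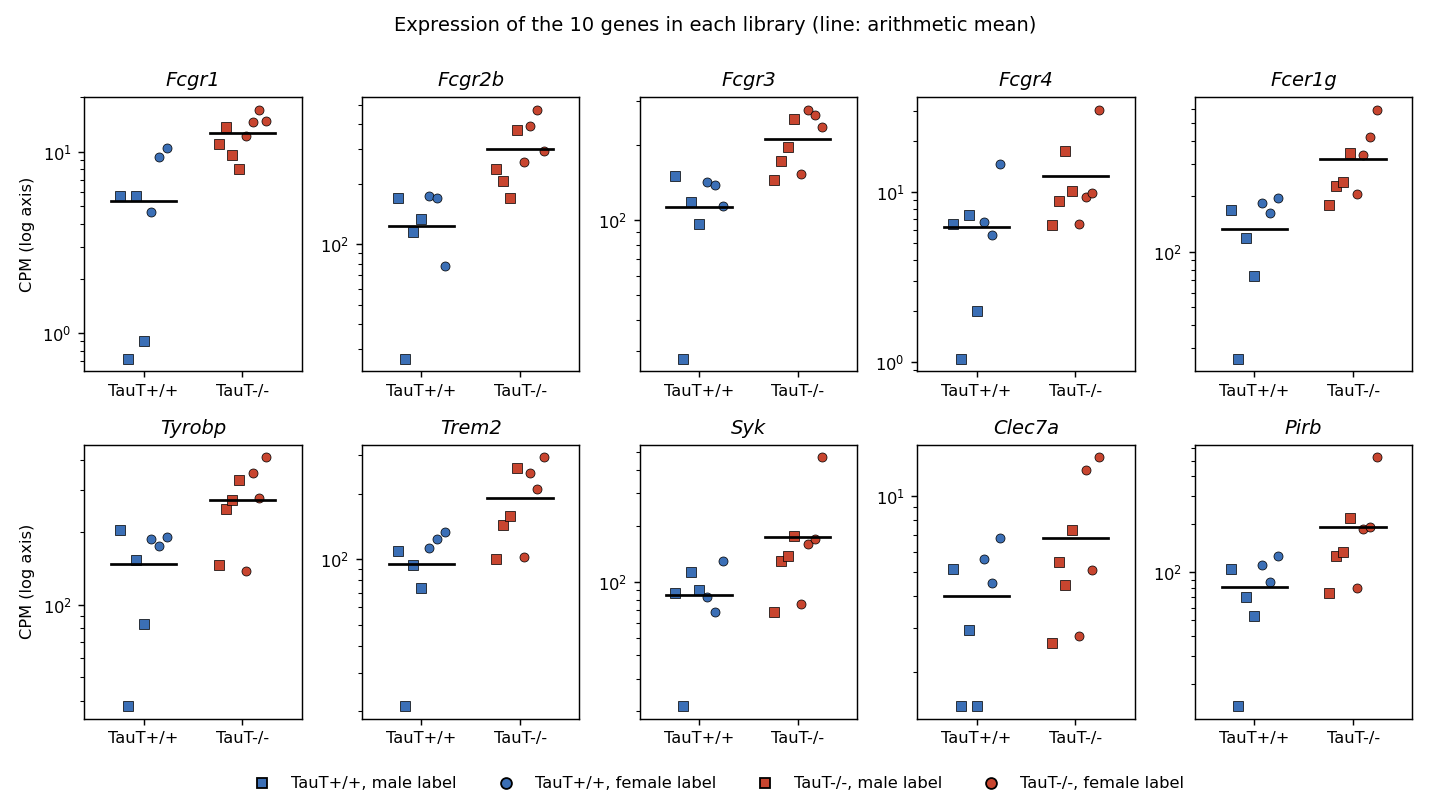
CPM of each gene in each of the 15 libraries on a log axis, by genotype, with squares for male and circles for female labels and a line at the arithmetic mean. TauT+/+ male-labelled library 2 lies at the bottom for 9 of 10 genes, and TauT-/- female-labelled library 4 is the highest for 7.

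No member was free of overlap over all 15 libraries, and 0.692% of all genes were, with the lowest TauT-/- value above the highest TauT+/+ value. Within the male label 2 of the 10 did not overlap (Fcgr1 and Fcer1g), against 2.24% of all genes. Within the female label 4 did not (Fcgr1, Fcgr2b, Fcgr3 and Fcer1g), against 6.29%. A few libraries set the ends of the ranges. TauT+/+ male-labelled library 2 was lowest for 9 of the 10 genes, TauT+/+ female-labelled library 3 was the highest TauT+/+ library for 7, and TauT-/- male-labelled library 1 was the lowest TauT-/- library for 7. Without TauT+/+ male-labelled library 2 the median log2 fold change of the 10 was 0.83.

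Fitted within the sex labels, the log2 fold change of the 10 genes was 0.72 (Syk) to 1.70 (Fcgr1) under the male label and 0.61 (Clec7a) to 1.33 (Fcgr2b) under the female label. By edgeR, 0 of the 10 passed the adjusted p under either label, and 0.0% of all genes did. Unadjusted p was under 0.05 for 6 of the 10 under the male label (4.1% of all genes) and for 2, Fcgr2b and Fcer1g, under the female label (6.89%). DESeq2 with 1 term per group also called 0 of the 10, where it called 0.215% of all genes higher under the male and 1.26% under the female label. The difference between the labels (female minus male) ran from -0.85 ± 0.82 for Fcgr1 to 0.50 ± 0.80 for Syk on the log2 scale (edgeR adjusted p = 1.0 for each of the 10). Standard errors of this size leave differences of the order of the fold changes themselves undetectable here.

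**Figure D3:**
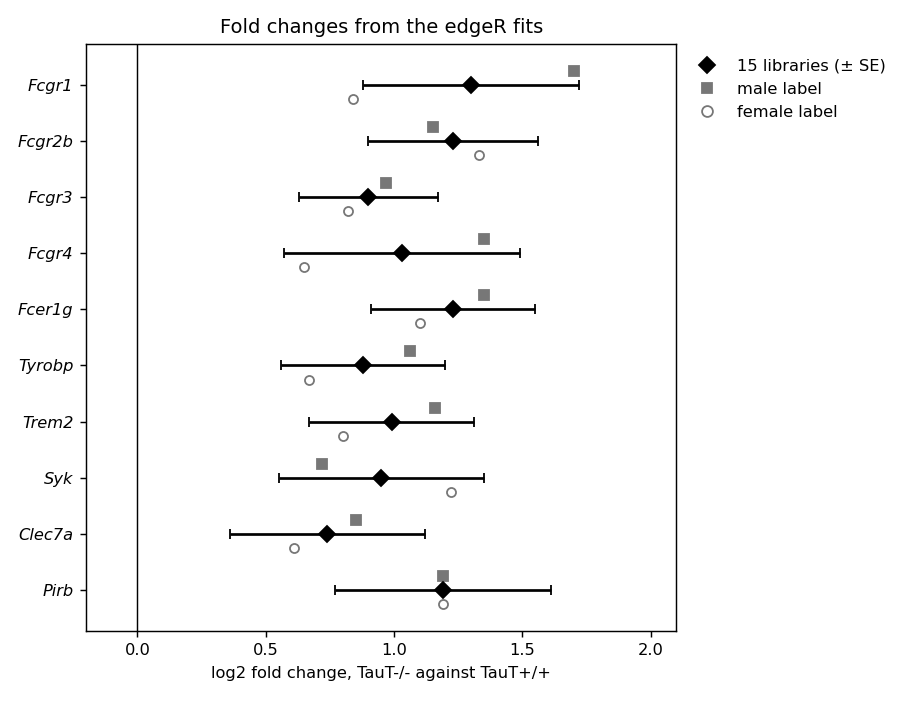
Log2 fold change of each gene, TauT-/- against TauT+/+, from the fit of 15 libraries (diamonds, bars of ± 1 SE) and from the fits within the male (squares) and female (open circles) labels. All values are above 0, from 0.61 to 1.70.

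Without the female-labelled library 1 of each genotype, which were near-identical to the male-labelled ones, the median log2 fold change of the 10 genes was 1.14 (0.91 to 1.38, smallest edgeR adjusted p = 0.109). Without the male-labelled library 1 in their place it was 1.17 (1.05 to 1.47, smallest edgeR adjusted p = 0.0812). In these 2 edgeR fits only 0.0399% and 0.0139% of all genes tested were called higher. DESeq2 on these 13 libraries called 6 of the 10 (4.35% of all genes) and 7 of the 10 (5.19%), now with Tyrobp in both and without Fcgr1 in the former. With 12 libraries, after leaving out the 3 that disagreed with their sex label, the median was 1.29 (1.10 to 1.64, smallest edgeR adjusted p = 0.152). That fit called 0 of 16211 genes higher and 0 lower.

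Ratios between members within a library compare the genes with each other, on log2 CPM with a pseudocount of 0.5. Tyrobp relative to Fcer1g was lower in TauT-/- cultures. The ratio of their CPM was 1.21, 1.43, 1.29 and 1.13 in TauT+/+ and 0.816, 1.10, 1.13 and 0.960 in TauT-/- labelled male, and 1.02, 1.08 and 0.970 against 0.676, 1.05, 0.659 and 0.693 labelled female. In 5 of 8 TauT-/- libraries it was below the lowest TauT+/+ library, and the other 3 lay within the TauT+/+ range. The mean log2 ratio was 0.20 ± 0.20 (SD, n = 7) and -0.21 ± 0.33 (n = 8), a difference of -0.41 (exact two-sided permutation test within sex labels, p = 0.00776, adjusted over 5 ratios p = 0.0388, smallest possible p = 0.000408). The difference was -0.34 under the male and -0.43 under the female label. It did not pass the adjusted p without the female-labelled or without the male-labelled library 1 of each genotype (-0.39 in both, exact permutation adjusted p = 0.114 and 0.107), nor in 11 of the 15 sets that leave out 1 library.

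Fcgr2b relative to Fcgr3, the inhibitory against the activating low-affinity receptor, had a mean log2 ratio of 0.08 ± 0.34 in TauT+/+ and 0.46 ± 0.34 in TauT-/-. In 5 TauT-/- libraries it exceeded the highest TauT+/+ library, and the difference of 0.38 did not pass (exact permutation p = 0.0559, adjusted p = 0.140). Fcgr1 relative to Fcgr3 differed by 0.49 (exact permutation adjusted p = 0.343), Fcgr4 relative to Fcgr3 by 0.04 (adjusted p = 0.949, exact permutation) and Trem2 relative to Tyrobp by 0.09 (adjusted p = 0.543, exact permutation). Of 100-base windows along the canonical transcripts, 3.04% of Fcgr3's and 6.93% of Fcgr2b's are shared with transcripts of other genes, including each other's. Pirb shares 24.8%, mainly with Pira12 and Pira2, so that its counts are uncertain where reads could be split. The other 7 members share none. Exons of Fcgr2b and Trem2 overlap antisense genes (Gm38204 and Gm65654), and the sources used here do not state whether the kit marks strand, so reads of these partners may not be told apart. Gm38204 was at most 0.0524 CPM.

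**Figure D4:**
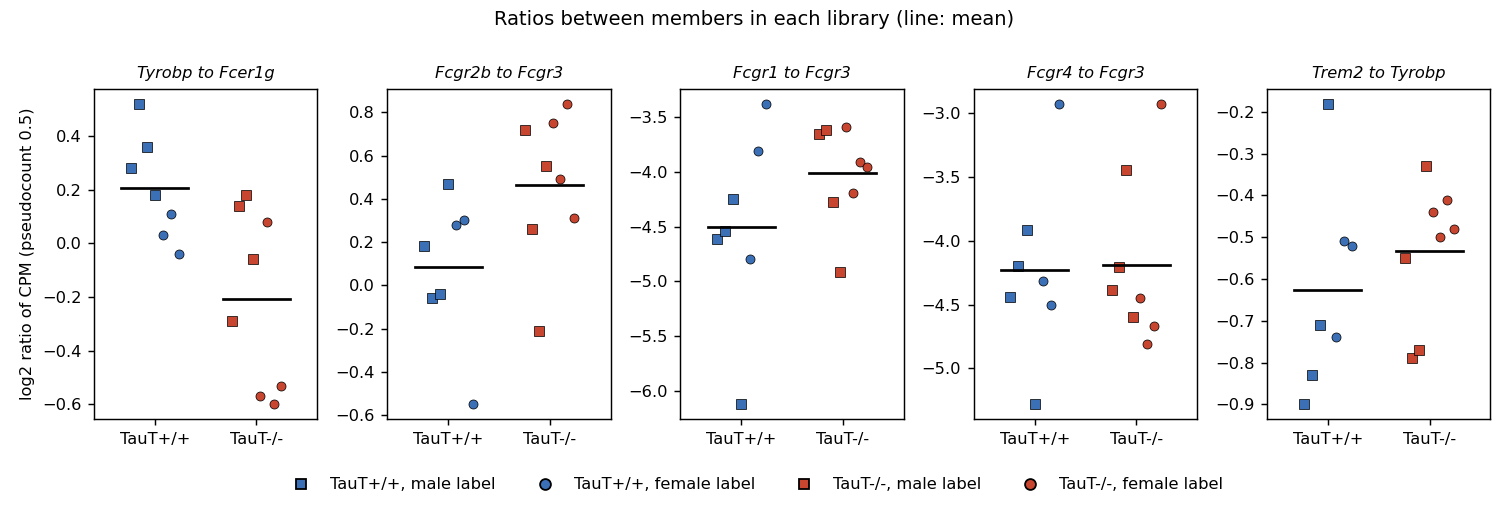
Log2 ratio of CPM between members in each library, by genotype, with squares for male and circles for female labels and a line at the mean. Tyrobp relative to Fcer1g averages 0.20 in TauT+/+ and -0.21 in TauT-/-, while Fcgr4 relative to Fcgr3 differs by 0.04.

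The 10 genes varied together from library to library. Over the 45 pairs of members, Pearson's r of log2(CPM + 0.5) ran from 0.568 (Fcgr2b with Clec7a) to 0.975 (Tyrobp with Trem2), with a median of 0.866 and 12 pairs over 0.9. This describes 15 libraries that share genotype, depth and culture, without a test. The genes closest to the members' mean profile, of 13190 with a mean of at least 1 CPM, were Ms4a6d (r = 0.988), Prkch (0.986), Laptm5 (0.986), Cd300c2 (0.986) and Vav1 (0.984). Laptm5 is a lysosomal membrane protein of leukocytes, Vav1 a guanine nucleotide exchange factor downstream of ITAM receptors and Cd300c2 an activating receptor of myeloid cells. Among defining leukocyte and macrophage markers, Spi1 ranked 11 (r = 0.980), Csf1r 52 (0.963), Ptprc 69 (0.958), Itgam 93 (0.951) and Adgre1 467 (0.835).

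Macrophage markers were higher in the same libraries. The summed CPM of 15 macrophage markers, none of them a member, was 1306 to 10117 in TauT+/+ (6877 ± 2915) and 6152 to 20031 in TauT-/- (13206 ± 5080). The summed CPM of the 10 members was 179 to 1014 (794 ± 309) and 974 to 2885 (1691 ± 651). Members per 100 CPM of macrophage markers had a median of 13.1 (8.8 to 13.7) in TauT+/+ and 14.1 (8.4 to 15.8) in TauT-/-, with the genotypes overlapping. None of the 15 was at 0 in every library. Of the defining markers, Csf1r, the receptor for M-CSF, was at 116 to 717 and 426 to 1610 CPM, and Adgre1, which encodes F4/80, was at 34.4 to 1100 and 137 to 3375 CPM. With the mean log2 CPM of the macrophage markers as a covariate, the members' log2 fold changes ranged from 0.15 (Clec7a) to 0.94 (Fcgr1), with a median of 0.37. The smallest edgeR adjusted p was 0.125 (Fcer1g), in a fit that called only 0.0116% of all genes higher. In it 4 of the 10 members were at unadjusted edgeR p under 0.05. What part macrophage content had in the difference between genotypes was not tested.

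**Figure D5:**
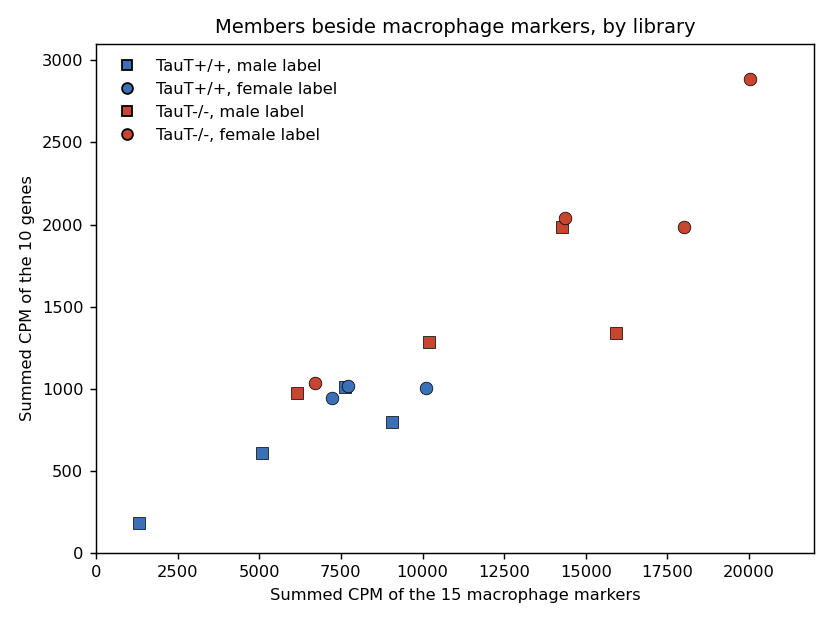
Summed CPM of the 10 genes (vertical axis) against summed CPM of 15 macrophage markers (horizontal axis) in each library, by genotype and sex label. The libraries run from 179 and 1306 CPM in TauT+/+ male-labelled library 2 to 2885 and 20031 CPM in TauT-/- female-labelled library 4.

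Of the macrophage list 14 of 15 were higher in TauT-/-, with a median log2 fold change of 0.88. edgeR called Cd68, a lysosomal protein of macrophages, at 1.46 ± 0.33 (adjusted p = 0.0445), and DESeq2 called Cd68, Cd14, C1qa, C1qb and Itgam (5 of 15, against 5.65% of all genes). All 6 leukocyte markers were higher (median 0.91). edgeR called 0 of them, 6 were at unadjusted p under 0.05 (10.6% of all genes), DESeq2 called Laptm5 and Cd53 (2 of 6, against 5.65% of all genes) and voom called 1 (3.55%). Of 7 tested osteoclast markers 4 were higher (summed CPM 107 to 519 and 86.3 to 862; 0 called by edgeR, DESeq2 and voom, 0 at unadjusted p under 0.05). Of the 14 MSC markers 10 were lower (median -0.46), and DESeq2 called Pdgfra, Pdgfrb and Vcam1 lower, where it called 6.43% of all genes lower. edgeR called 0 of them, with 3 lower and 1 higher at unadjusted p under 0.05, and voom called 3 lower and 1 higher. Other blood cell types were near 0, with summed CPM of at most 53.3 for neutrophil, 22.0 for mast cell and basophil, 10.1 for B and plasma cell, 2.06 for T and NK cell, and 0.115 for erythroid markers. Dendritic cell markers reached 43.4, megakaryocyte markers 143 and endothelial markers 35.6 CPM. In the endothelial list Kdr was called higher by DESeq2, and these lists' parts in the members' difference were not tested.

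The other genes of the route were counted in 4 lists, and edgeR called 0 genes of each at the adjusted p. Over all 17204 genes tested, 48.3% had a positive log2 fold change, and the share called higher was 10.6% at unadjusted p under 0.05, 5.65% by DESeq2 and 3.55% by voom. In the list of other Fc receptors 5 of 13 genes were tested. Fcgrt, the neonatal Fc receptor that recycles IgG, was at 92.6 to 275 CPM in TauT+/+ and 71.5 to 163 in TauT-/- (log2 fold change -0.59 ± 0.23, edgeR adjusted p = 0.145), opposite in sign to the 10 members. Trim21, a cytosolic Fc receptor, was at 15.5 ± 4.67 and 12.9 ± 1.92 CPM (edgeR adjusted p = 0.377), and Fcrlb, an Fc receptor-like protein, at 0.384 ± 0.313 and 1.09 ± 0.57 CPM (edgeR adjusted p = 0.188). At unadjusted p under 0.05, Fcrlb and Fcamr were higher and Fcgrt lower, DESeq2 called 0 and voom called 1. The IgE receptor chains Fcer1a and Ms4a2 did not pass the filter on low counts.

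Of 22 tested genes in the list of receptors that couple to ITAM or related adaptors, 21 were higher in TauT-/- (median log2 fold change 1.10), 11 at unadjusted p under 0.05 (10.6% of all genes), 9 by DESeq2 (5.65%) and 3 by voom (3.55%). The list also holds Hcst, itself an adaptor, which was among the DESeq2 calls. Pira2 and Pira12 were called too. The member Pirb shares 100-base windows with both, so their calls may not be independent of Pirb. Clec4e (Mincle), a gamma chain-coupled receptor for mycobacterial glycolipid, was at 13.6 to 123 CPM in TauT+/+ and 75.7 to 1355 in TauT-/- (log2 fold change 1.67 ± 0.63, edgeR adjusted p = 0.132, DESeq2 adjusted p = 0.0337). Its highest value, like that of its relative Clec4d (1.08 ± 0.48, edgeR adjusted p = 0.196), came from TauT-/- female-labelled library 4. Cd300ld, an activating receptor of the CD300 family, was at 37.9 to 224 and 135 to 254 CPM (edgeR adjusted p = 0.267).

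Of 32 downstream signalling genes, 29 were higher (median 0.74), 22 at unadjusted p under 0.05 (10.6% of all genes), 13 by DESeq2 (5.65%) and 4 by voom (3.55%). Ptk2b (Pyk2), a kinase of adhesion signalling, was at 41.0 to 136 CPM in TauT+/+ and 136 to 396 in TauT-/- (log2 fold change 1.05 ± 0.27, edgeR adjusted p = 0.0610, DESeq2 adjusted p = 0.00457). Prkcd, a protein kinase C isoform, was at 126 to 232 and 205 to 343 CPM (0.40 ± 0.14, edgeR adjusted p = 0.109, DESeq2 adjusted p = 0.0407). Rac2, a small GTPase of blood cells, was at 22.1 to 226 and 130 to 488 CPM (0.99 ± 0.41, edgeR adjusted p = 0.162).

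Of 26 genes in the list of inhibitory receptors and phosphatases, 23 were higher (median 0.84), 16 at unadjusted p under 0.05 (10.6% of all genes), 9 by DESeq2 (5.65%) and 6 by voom (3.55%). The list also holds Csk, Pag1 and the Dok genes, which encode neither. Csk and Pag1 were among the DESeq2 calls. Sirpa, the receptor for CD47, was at 111 to 506 CPM in TauT+/+ and 454 to 1469 in TauT-/- (log2 fold change 0.97 ± 0.29, edgeR adjusted p = 0.0846, DESeq2 adjusted p = 0.0183). Lilrb4b was at 69.8 to 629 and 341 to 1184 CPM (0.95 ± 0.33, edgeR adjusted p = 0.114, DESeq2 adjusted p = 0.0390), and Lilrb4a at 39.1 to 379 and 169 to 621 CPM (0.74 ± 0.35, edgeR adjusted p = 0.211). Lilrb4a is an ITIM receptor of myeloid cells, while its relative Lilrb4b lacks ITIMs although it stands in this list. Whether reads could be split between these paralogs was not examined, so both values are uncertain. The activating and the inhibitory lists both had positive medians, like the 10 members, beside the median of -0.015 over all genes.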

How the data were processed

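RNA of 15 MSC cultures was amplified as full-length cDNA from 1 ng with SMART-Seq mRNA LP and sequenced as paired reads. The authors filtered reads with fastp 0.23.1, mapped them with STAR 2.7.9a to GRCm39 with GENCODE M31 (mouse, although the methods call it human) and counted them on genes with featureCounts (Subread 2.0.1, reverse strand setting). The deposited table holds raw counts, as whole numbers, and 0 of its columns lacked a sample. The authors compared genotypes with DESeq2, including sex.

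For this report edgeR 4.0.16 in R 4.3.3 was applied to the counts (TMM, filterByExpr, quasi-likelihood test with terms for sex label and genotype), with Benjamini-Hochberg adjustment over 17204 genes. SE is the absolute log2 fold change divided by the square root of F. Fits within the sex labels used 1 term per group. The same filtered genes went into DESeq2 1.42.0 (independent filtering at 0.05) and voom with quality weights (limma 3.58.1). The statistics were tested on simulated data. Ratios were tested by exact permutation within sex labels in SciPy 1.17.1 and Python 3.11.15. Lengths, positions and promoters are those of GENCODE M39, which annotates the same build.

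The members and all gene lists were chosen with earlier results of these data known. The text names all 10 members and, of each pathway list, genes past the edgeR threshold and the 3 tested genes with the highest mean CPM. It also names the 5 genes whose profile was most like the members' (Pearson's r of log2(CPM + 0.5), mean of at least 1 CPM), and 5 defining markers. Other genes were named after their values were seen, being the few a test called in a short list. Alternatives covered count model, scaling, filter, covariates, replicate block and left-out libraries. The DESeq2 fits of 13 libraries were chosen after seeing the data. Precision is limited by the spread between libraries, and PCR copies without molecular identifiers are not independent molecules.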

Additional observations from a re-analysis of the deposited data

Results flagged for a closer look

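Syk was low in TauT+/+ male-labelled library 2, at 21.3 CPM against 86.6 to 113 CPM in the other 3 libraries of that group. On log-scaled CPM the gap to its nearest neighbour was 0.842 of the group's range, above Dixon's critical value for 4 samples. On the CPM given above, without logs, the gap is a smaller share of the range and lies below that value. The mark thus depends on the log scale. The marked group was 1 of 30 groups of 4 libraries examined, of which chance alone would mark about 1.5. The same library was also lowest for 8 other members, and its part in the difference between genotypes is given by the fits without it.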

How the results depend on the processing

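All 10 genes had a positive log2 fold change in all 290 values from 29 alternatives, from 0.15 (macrophage covariate, Clec7a) to 1.64 (12 libraries, Fcgr1). The count of members called was 0 with edgeR and changed with the tool, at 6 with DESeq2, 4 with voom, and 6 and 7 with DESeq2 on 13 libraries without the female-labelled or the male-labelled library 1 of each genotype. It was 0 to 1 when 1 library was left out. Fcer1g was called without TauT+/+ male-labelled library 3 (edgeR adjusted p = 0.0438) or without TauT-/- female-labelled library 1 (edgeR adjusted p = 0.0471). In these fits 2.98% and 1.08% of all genes were called higher, against 0.546% over 15 libraries, so the call moved with the whole table. Over all genes edgeR called 94 higher and 129 lower, DESeq2 972 and 1106, and voom 611 and 708. Of the pathway lists, DESeq2 called 9 genes of the adaptor-coupled list (6 and 10 on the 13 libraries), 13 downstream genes (11 and 15) and 9 of the inhibitory list (11 and 12), against 0 with edgeR.

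Same-numbered libraries of the genotypes deviated together with r = 0.253, 0.246, 0.636 and 0.171 under the male label and 0.31, 0.0979 and -0.0348 under the female label, so the numbers were not taken as pairs. With a replicate block 0 members were called (median log2 fold change 0.95, smallest edgeR adjusted p = 0.0676), where 0.477% of all genes were called higher. With the same block, Tyrobp to Fcer1g was -0.36, lower in TauT-/- in 7 of 7 pairs, and Fcgr4 to Fcgr3 was -0.14. For Tyrobp to Fcer1g the exact permutation p of 0.0156 was the smallest that 7 pairs allow. Its adjusted p of 0.0781 could have passed only if other ratios had also had small p-values.

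The Tyrobp to Fcer1g difference of -0.41 kept its sign in all 21 alternatives and missed the adjusted p in 16. The replicate block was among these, with p already the smallest possible. It was -0.41 without sex strata (exact permutation adjusted p = 0.0839), -0.39 without the female-labelled or the male-labelled library 1 of each genotype, -0.43 with 12 libraries (adjusted p = 0.167, exact permutation) and -0.47 to -0.35 without 1 library each (adjusted p = 0.0143 to 0.0898, exact permutation). The Fcgr2b to Fcgr3 difference was 0.27 to 0.48 without 1 library each, and passed only without TauT-/- male-labelled library 3 (exact permutation adjusted p = 0.0204). The Fcgr4 to Fcgr3 difference of 0.04 ran from -0.14 to 0.26 without 1 library each and turned negative without TauT+/+ male-labelled library 4 (-0.14), TauT+/+ female-labelled library 2 (-0.01), TauT-/- male-labelled library 3 (-0.07) or TauT-/- female-labelled library 4 (-0.14). The cause of these changes was not tested. Counting precision was lowest for Clec7a, Fcgr1 and Fcgr4, at 53, 65 and 73 counts in their lowest libraries.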
